A study of Drosophila melanogaster with 2 samples.

Results

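The genes described here are the Drosophila melanogaster cuticle protein genes whose symbols begin with Cpr, Lcp or Ccp followed by a number. Of 18164 annotated genes, 94 matched, of which 92 were protein-coding and 2 were pseudogenes, Lcp1Psi and Lcp65APsi. They were set against a map of chromatin binding of CG34376, an annotated gene, made by ChIP-seq (chromatin immunoprecipitation and sequencing). Whole embryos of both sexes, 0 to 24 h old, came from a transgenic strain, CG34376-GFP, in which a green fluorescent protein is fused to the C terminus of the tagged protein. The 2 libraries, biological replicates 2 and 3, form 1 group, and no other group is analysed here, so no conditions could be compared. A free-text label calls each library an input control, while the assay title and the antibody field describe an immunoprecipitation, and the libraries were treated as immunoprecipitated. Whole embryos of this age range mix many cell types and stages: binding in few cells and weak binding in many cells cannot be told apart in these lists.

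Insect cuticle is a layer of chitin and protein that epidermal cells secrete on their outer face. Most Cpr, Lcp (larval cuticle protein) and Ccp genes encode secreted proteins with the Rebers and Riddiford consensus, a domain that binds chitin. The genes are short and often lie in tandem arrays of close relatives. They are switched on in the epidermis late in embryonic life or around a moult, in a programme tied to pulses of the hormone ecdysone. Not all of them need be active in embryos, and their expression was not measured here.

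The cuticle protein genes lay mostly in arrays. Runs of at least 3 of them with no more than 10 kb between neighbouring genes were called clusters, and 68 of the 94 genes fell into 13 clusters of 3 to 18 genes, 4.70 to 31.2 kb long. A further 4 genes formed the pairs Cpr50Ca with Cpr50Cb and Cpr97Ea with Cpr97Eb, and 22 genes were isolated. By arm, 3L held 46 genes, 2R held 27, 3R held 12, 2L held 5 and X held 4. The median gene length was 873.5 bp, against 2166 bp over all 13945 protein-coding genes, and 85 of the 94 had a single annotated start.

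Summits at the promoters of these genes were few. A thresholded summit, the highest point of 1 of the 7025 peaks that passed the authors' reproducibility threshold, lay within 500 bp of a start in 2 of 94 genes, or 2.13% (95% Wilson interval 0.585 to 7.43). Over all protein-coding genes the share was 30.1%. Among the 7025 highest candidates of each replicate the count was again 2 in both, so the share was 2.13% ± 0 (SD, n = 2), against 29.4% ± 0.908 of all protein-coding genes, with 28.8% in replicate 2 and 30.0% in replicate 3. None of the 68 clustered genes carried such a summit, which allows a share of up to 5.35%, whereas 2 of the 22 isolated genes did, or 9.09% (2.53 to 27.8). A gene with more starts has more room for a summit, and the cuticle protein genes averaged 1.10 starts, against 1.41 over all protein-coding genes. With 1 start the counts were 1 of 85 cuticle protein genes, or 1.18%, against 23.0% of all protein-coding genes with 1 start. Neighbouring genes can share a peak and are not independent, and these intervals cover counting error only.

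The full candidate lists, in which the pooled one includes the thresholded peaks, gave a like order. The pooled list of 30000 candidates is labelled as peaks and background, and its length is preset. It placed a summit within 500 bp of a start in 14 of 94 genes, or 14.9% (9.08 to 23.5), against 60.4% of all protein-coding genes. Replicate 2 gave 12 genes and replicate 3 gave 17 genes, a mean of 15.4% ± 3.76 (SD, n = 2), against 60.2% ± 0.325 over all protein-coding genes, with 59.9% in replicate 2 and 60.4% in replicate 3. The shortfall is many times the spread between the 2 replicates. That spread shows how calls repeat at the same genes and not how sets of genes vary. Among genes with 1 start the pooled list marked 10 of 85 cuticle protein genes, or 11.8%, against 52.6% of all protein-coding genes. Candidates in both replicates were found at 9 cuticle protein genes, or 9.57%, against 55.3% of all protein-coding genes. A further 3 genes had one in replicate 2 alone and 8 in replicate 3 alone. At 74 of the 94 genes no list, pooled or single, held a candidate.

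The shares of clustered and isolated genes with these candidates could not be told apart, since the intervals are wide. The pooled list marked 10 of 68 clustered genes, or 14.7% (8.19 to 25.0), and 4 of 22 isolated genes, or 18.2% (7.31 to 38.5), a difference of -3.48 percentage points. That difference was -0.401 points in replicate 2, with 9 clustered and 3 isolated genes, and -11.1 points in replicate 3, with 11 clustered and 6 isolated genes. It is smaller than the gap between the replicates. None of the 4 paired genes had a candidate. When each summit was assigned to its nearest start only, the difference turned to 5.61 points, because 2 of the 4 isolated genes lost their summit to a neighbour.

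**Figure D1:**
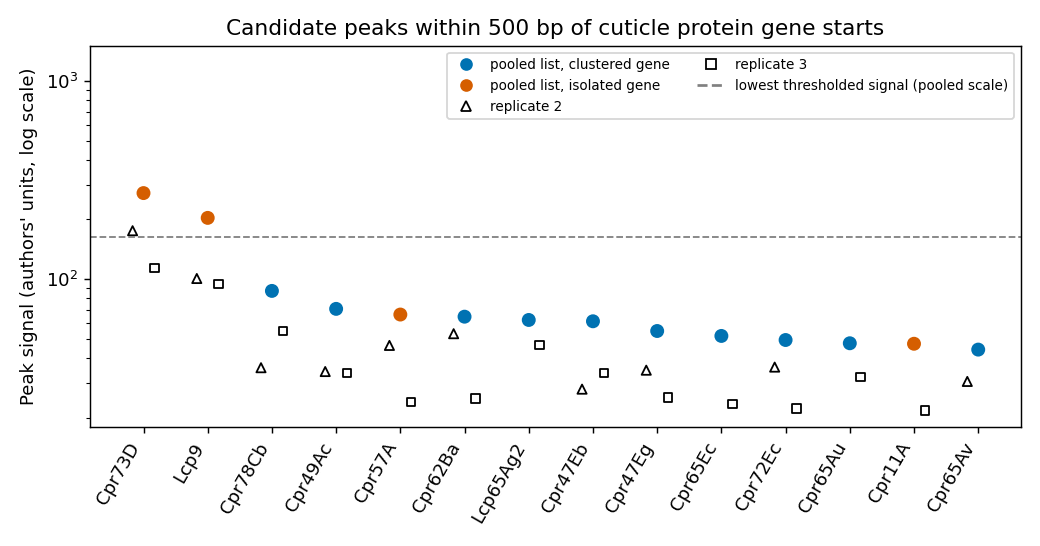
Signal in the authors' units, on a log axis, of the highest pooled candidate within 500 bp of a start of each of the 14 cuticle protein genes that had one (filled circles; blue clustered, orange isolated), with the matching candidate of replicate 2 (triangles) and replicate 3 (squares) where present. The dashed line is the lowest thresholded signal of the pooled list, 163, to which replicate values are not scaled; Cpr73D at 272 and Lcp9 at 204 stand above it and the other 12 lie between 44.1 and 87.2.

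Both thresholded promoter summits lay closer to the start of another gene. Cpr73D (FBgn0036680), an isolated gene on the minus strand of 3L with its start at 16957689, had a peak from 16957201 to 16957572 with its summit 440 bp downstream of the start. The same summit lay 190 bp upstream of a start of Ogdh, which encodes the 2-oxoglutarate dehydrogenase of the citric acid cycle. Its signal was 272 in the pooled list (rank 3044), 175 in replicate 2 (rank 2138) and 114 in replicate 3 (rank 3901). For scale, the thresholded signals ran from 163 to 3316 with a median of 252, so that this was a peak of ordinary height.

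The windows printed next are those of the 4 genes with the highest promoter signal on the arms from which sequence is shown, read from the RefSeq sequence of Release 6 of the fly genome, in the direction of transcription. Each promoter runs over 150 bases, from 100 before the start to 49 after it. Each summit window holds 101 bases centred on the highest pooled summit within 500 bp of the start. All 4 of these summits lie outside the promoter window, so both are shown. The promoter gives the letters around the start, and the summit window those under the highest signal. Cpr73D, Cpr78Cb and Lcp65Ag2 also have a pooled candidate of lower signal nearer to a start, at 238, 197 and 27 bp. That of Lcp65Ag2 lies within its promoter window. Cpr73D, Cpr78Cb and Cpr62Ba have 2 annotated starts each, and the promoter shown is at the start nearest to the printed summit. Capitals mark words searched on both strands. TATAAA is the TATA box, and GATAA or GATAG after A or T is the site of GATA factors. GAGAG is the GAGA element, ATCGAT the core of the DRE, a promoter element bound by DREF, and CAAGGTC a nuclear receptor site. AACCGG or AACAGG or AACTGG is a core word of Grainyhead, an activator of cuticle genes.
Cpr73D promoter, chr3L:16957640-16957789, minus strand: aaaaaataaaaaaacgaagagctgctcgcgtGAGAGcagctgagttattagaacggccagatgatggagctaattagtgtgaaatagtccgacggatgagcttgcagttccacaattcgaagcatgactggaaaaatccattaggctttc
Cpr73D summit window, chr3L:16957199-16957299, minus strand: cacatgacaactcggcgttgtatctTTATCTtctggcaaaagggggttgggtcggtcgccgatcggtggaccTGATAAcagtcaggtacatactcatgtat
Cpr78Cb promoter, chr3L:21294392-21294541, plus strand: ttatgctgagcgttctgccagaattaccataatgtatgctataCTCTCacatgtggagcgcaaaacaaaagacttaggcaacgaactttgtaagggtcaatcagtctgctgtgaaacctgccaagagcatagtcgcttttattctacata
Cpr78Cb summit window, chr3L:21294218-21294318, plus strand: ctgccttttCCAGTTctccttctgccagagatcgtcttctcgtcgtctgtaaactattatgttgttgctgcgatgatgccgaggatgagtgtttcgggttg
Cpr62Ba promoter, chr3L:1831734-1831883, minus strand: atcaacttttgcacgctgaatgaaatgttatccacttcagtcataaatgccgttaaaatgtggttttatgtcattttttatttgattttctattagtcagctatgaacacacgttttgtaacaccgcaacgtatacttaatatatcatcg
Cpr62Ba summit window, chr3L:1832126-1832226, minus strand: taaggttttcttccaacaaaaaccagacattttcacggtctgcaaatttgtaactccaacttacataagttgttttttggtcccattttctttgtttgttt
Lcp65Ag2 promoter, chr3L:6133544-6133693, minus strand: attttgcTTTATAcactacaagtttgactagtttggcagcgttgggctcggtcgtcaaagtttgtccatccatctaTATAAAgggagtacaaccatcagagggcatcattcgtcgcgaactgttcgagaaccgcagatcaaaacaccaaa
Lcp65Ag2 summit window, chr3L:6133365-6133465, minus strand: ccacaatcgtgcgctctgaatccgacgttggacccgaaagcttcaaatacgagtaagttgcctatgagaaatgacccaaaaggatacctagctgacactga
The Cpr73D summit window holds 2 GATA words, at -25 and 22 from the summit. Among all 7025 thresholded summits 30.9% of windows of this length hold at least 1, so such words are common there. The Cpr78Cb summit window holds a Grainyhead word on the opposite strand at -41, as 9.86% of the thresholded windows do on either strand, and no searched word occurs in the summit windows of Cpr62Ba and Lcp65Ag2. The promoter of Cpr73D has a single GAGA word at -69 and no TATA box, and that of Cpr78Cb has a GAGA word at -57. No searched word occurs in the Cpr62Ba promoter window. Lcp65Ag2 has a TATA box 24 bases before its start and a second TATAAA on the opposite strand at -93.

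Lcp9 (FBgn0025578), which encodes a larval cuticle protein and is isolated on the minus strand of 2R, has its start at 24780428. Its peak ran from 24780582 to 24781065, with the summit 396 bp upstream of the Lcp9 start and 93 bp upstream of a start of CG3594. The signal was 204 in the pooled list (rank 5002), 101 in replicate 2 (rank 5818) and 94.4 in replicate 3 (rank 5344). Both replicates therefore placed it in the lower part of their highest 7025.

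The remaining 12 genes with a pooled candidate stood far below the threshold, with ranks from 14129 to 26327 and a median signal of 58.0. Their −log10 q values, as given by the authors, ran from 2.32 at Cpr78Cb to 0.572 at Cpr65Av. Those of the thresholded summits at Cpr73D and Lcp9 were 3.99 and 3.52. The list holds background by its label, so a candidate in it does not by itself show binding. The median of the highest signal was 61.8 over the 14 cuticle protein genes with a pooled promoter candidate, against 162 over all protein-coding genes with one. Cpr78Cb (FBgn0037068), in the cluster at 78C, led them with a pooled signal of 87.2, 224 bp upstream of its start, and with signals of 35.7 in replicate 2 and 54.8 in replicate 3. Cpr49Ac had 70.8, with 34.2 and 33.5 in replicates 2 and 3. Cpr57A, an isolated gene, had 66.3, with 46.3 in replicate 2 and 23.9 in replicate 3, and its summit lay 35 bp downstream of the start. Cpr62Ba had 64.7, with 53.1 in replicate 2 and 25.0 in replicate 3. Cpr57A ranked 14938 in replicate 2 and 25529 in replicate 3, and Cpr62Ba ranked 13002 and 24384, so both stood higher in replicate 2.

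The next genes had less support. Lcp65Ag2 had a pooled signal of 62.2, with 46.6 in replicate 3 and no candidate in replicate 2. Cpr47Eb had 61.3, 44 bp upstream of its start, with 27.9 in replicate 2 and 33.6 in replicate 3. Cpr47Eg had 54.8, with 34.7 in replicate 2 and 25.2 in replicate 3. Cpr65Ec had 51.7, with 23.5 in replicate 3 and none in replicate 2. The last 4 genes, Cpr72Ec, Cpr65Au, Cpr11A and Cpr65Av, ran from 49.3 down to 44.1. Of the 14 genes, 9 had candidates in both replicates and 5 in exactly 1, and 10 of the summits were upstream.

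The cuticle protein genes were also far from thresholded summits in general. The median distance from a gene's nearest start to a thresholded summit was 13495.5 bp (quartiles 7168 and 23348.8), against 3888 bp over all protein-coding genes, and it was 15306.5 bp in replicate 2 and 13493.5 bp in replicate 3, against 4112 bp and 3925 bp. Only 15 of 94 genes, or 15.96%, had one within 5 kb, against 54.8% of all protein-coding genes, and 59 genes, or 62.8%, had none within 10 kb, against 31.8%. The median was 12698.5 bp for clustered and 12726.5 bp for isolated genes, but 16655.5 bp and 12277.5 bp in replicate 2, and 12690.5 bp and 12926 bp in replicate 3, so that their order differed between the lists. Genes of a cluster often share the same nearest summit. Beyond 20 kb the contrast shrank, to 31.9% of cuticle protein genes against 19.8% of all protein-coding genes. Among genes with 1 start the median distance was 14603 bp for cuticle protein genes, against 5181 bp for all protein-coding genes. Beyond 20 kb the shares of genes with 1 start were 35.3% and 22.8%.

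**Figure D2:**
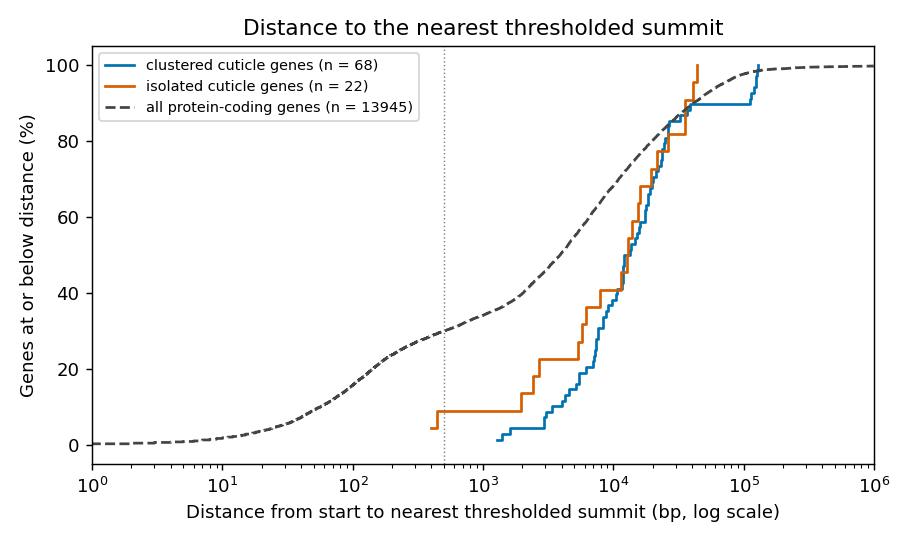
Cumulative share of genes (%) by the distance from a start to the nearest thresholded summit (bp, log axis), for clustered cuticle genes, isolated cuticle genes and all protein-coding genes; the dotted line marks 500 bp. The median distance was 12698.5 bp for clustered and 12726.5 bp for isolated genes, against 3888 bp for all protein-coding genes.

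Of the 5 isolated and the 5 clustered genes closest to a thresholded summit, 7 had a summit that lay closer to the start of another gene. Among isolated genes, Cpr57A came next after Lcp9 and Cpr73D, at 1964 bp, from a summit 9 bp from a start of CG13430. Cpr66Cb had one at 2427 bp, 48 bp from a start of Pex2, a peroxisome assembly gene, and Cpr67B one at 2675 bp, 15 bp from a start of eIF4E1, which encodes a cap-binding translation factor. Among clustered genes, Cpr47Eg was nearest, at 1284 bp, from a summit 4 bp from a start of Vhl, the fly relative of the von Hippel-Lindau gene. Cpr72Ea had one at 2907 bp, 268 bp from a start of ringer. The exceptions were Cpr49Ad at 1387 bp and Cpr76Ba and Cpr76Bb, which shared a summit at 1609 and 2926 bp, and for these 3 no other gene's start was nearer to the summit than that of a cuticle gene. The farthest genes were Ccp84Ae, Ccp84Af and Ccp84Ag, at 124699, 126218 and 129729 bp. The 7 Ccp84A genes lay 112373 to 129729 bp away in the thresholded list and 105944 to 123300 bp in replicate 2, but 26602 to 43958 bp in replicate 3, where the isolated gene Cpr12A was the farthest, at 73236 bp. The distance to a start does not show which gene a summit acts on.

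Inside the 13 clusters the thresholded list held 1 summit. The clusters span 0.186 Mb, which gives 5.37 summits per Mb (exact 95% Poisson interval 0.136 to 29.9), against 52.5 per Mb over the arms. Replicate 2 had 0 and replicate 3 had 1 of their highest candidates inside. With 5 kb added on each side the count was 8 in 0.316 Mb, or 25.3 per Mb (10.9 to 49.8), and 28.4 and 25.3 per Mb in replicates 2 and 3. Within 5 kb of the isolated genes there were 10 summits, or 36.8 per Mb (17.6 to 67.6), an interval that overlaps that of the clusters. From 5 to 50 kb outside the clusters 98 summits gave 90.7 per Mb (73.6 to 111), so the sequence around the clusters was denser in summits than the arms on average. That sequence was denser in protein-coding starts too.

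Protein-coding starts numbered 456 per Mb inside the clusters, against 144 per Mb over the arms, a figure that the definition of a cluster as a run of close genes makes high. From 0 to 5 and 5 to 10 kb outside, starts numbered 223 and 266 per Mb. Farther out they numbered 312.5 per Mb from 10 to 20 kb and 240 from 20 to 50 kb. Starts were thus denser than over the arms at each distance, and summit densities were not scaled to them. By distance, thresholded summits per Mb numbered 53.8 from 0 to 5 kb outside, 91.3 from 5 to 10 kb, 129 from 10 to 20 kb and 77.8 from 20 to 50 kb. Pooled candidates were less unequal: 31 lay inside, or 166 per Mb (113 to 236), against 224 per Mb over the arms and 335 per Mb from 5 to 50 kb outside. Replicate 3 likewise gave 31 inside, but replicate 2 gave 22, or 118 per Mb (74.0 to 179), so the value over the arms lay within the pooled and replicate 3 intervals and above that of replicate 2. No pooled candidate lay inside 6 clusters with 27 genes.

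**Figure D3:**
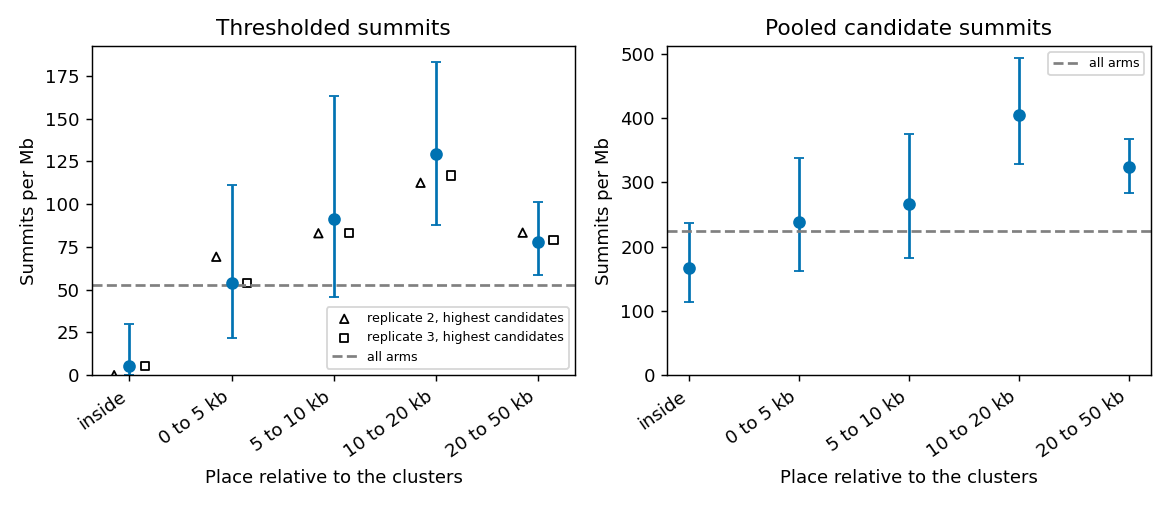
Summits per Mb inside the 13 clusters and at distances of 0 to 5, 5 to 10, 10 to 20 and 20 to 50 kb outside them, for thresholded summits (left) and pooled candidates (right), with exact 95% Poisson intervals; triangles and squares are the 7025 highest candidates of replicates 2 and 3, and dashed lines are the arms. Thresholded summits stand at 5.37 per Mb inside, against 52.5 over the arms.

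Of the 13 clusters, 8 had a thresholded summit within 5 kb and 5 had none. The 1 summit inside a cluster was at 12390312 on 2R, between Cpr49Ac and Cpr49Ad and over no annotated gene. Its signal was 235 (rank 3969), with 129 in replicate 3 (rank 3085), and replicate 2 had no candidate within 250 bp, so it has a matching candidate in 1 library alone. Beside Lcp1 to Lcp4 a summit of 245 lay 250 bp upstream of a start of Cyp4ad1, a cytochrome P450 gene. Beside the 47E cluster the Vhl summit had a signal of 391. Beside the 64A cluster a summit of 490 lay in CG43367, a gene whose span holds all 4 cuticle genes of that cluster. Beside the 67F cluster a summit of 504 lay in Aps, and beside the 72E cluster one of 216 lay at ringer. The strongest, 1939 (rank 11), lay 3412 bp outside the 78C cluster, 75 bp downstream of a start of CG11309, with ranks of 12 in both replicates.

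**Figure D4:**
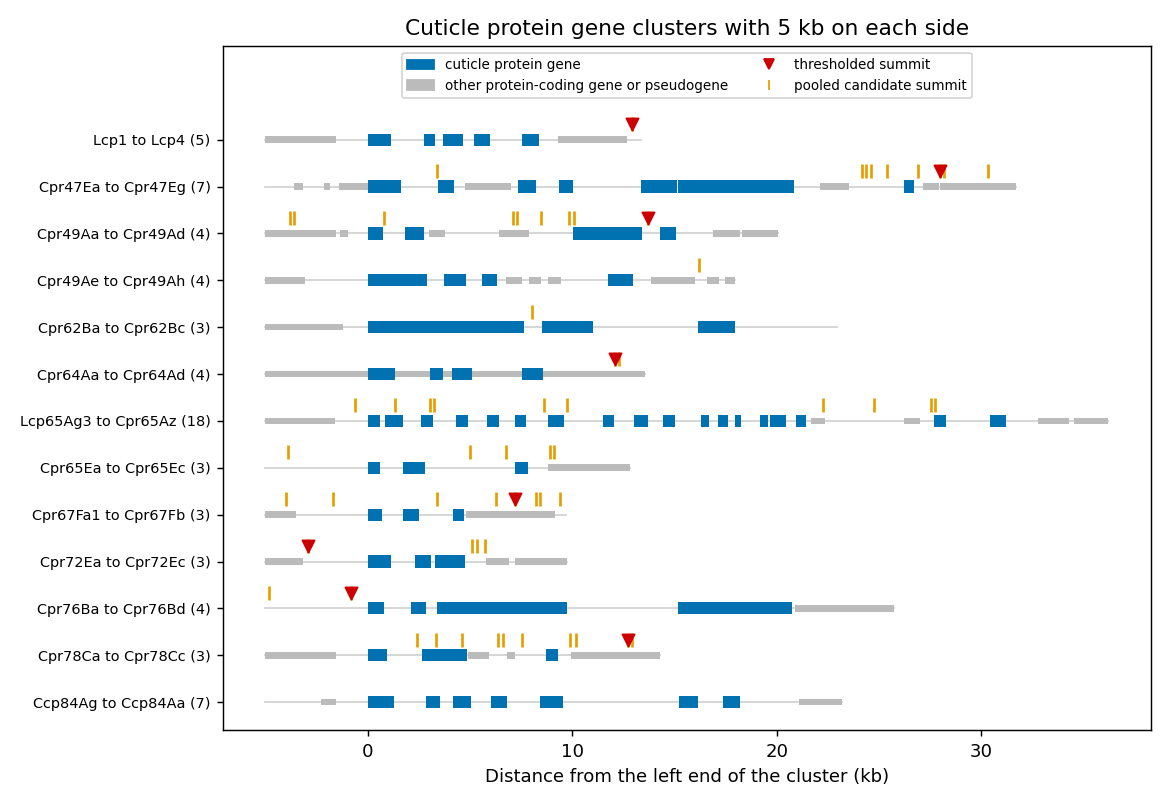
Each row is 1 cluster, drawn to scale in kb from its left end with 5 kb on each side, with the number of cuticle genes in brackets; blue boxes are cuticle protein genes, grey boxes other protein-coding genes or pseudogenes, red triangles thresholded summits and orange ticks pooled candidates. Of 8 thresholded summits, 1 lies inside a cluster, between Cpr49Ac and Cpr49Ad, and the row of Ccp84Ag to Ccp84Aa holds no mark at all.

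The summit beside the Cpr76B cluster was the clearest one that was nearest to a cuticle gene. It lay 829 bp past the 3′ end of Cpr76Ba (FBgn0036878) and 1609 bp downstream of its start, over no annotated gene, with a signal of 449 (rank 1037), 203 in replicate 2 (rank 1573) and 248 in replicate 3 (rank 663). Both replicates placed it well within their highest 7025. The 101 bases centred on it are printed, as the one strong summit of these clusters that lies over no gene and nearest to a cuticle gene, in the direction of Cpr76Ba, on Release 6.
Summit window beside Cpr76Ba, chr3L:19516673-19516773, minus strand: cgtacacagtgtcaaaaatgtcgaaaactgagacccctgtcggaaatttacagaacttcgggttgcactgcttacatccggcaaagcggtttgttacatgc
None of the 6 kinds of word named above occurs in it. For comparison, of all 7025 thresholded windows of this length 30.9% hold a GATA word, 16.9% a GAGA word, 12.9% TATAAA, 9.86% a Grainyhead word, 5.88% the DRE core and 0.683% CAAGGTC.

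Clusters without a thresholded summit within 5 kb were Cpr49Ae to Cpr49Ah, the Cpr62B cluster, the 65A cluster of 18 genes, the Cpr65E cluster and the Ccp84A cluster. The Ccp84A genes lie on 3R between lab and pb, within the Antennapedia complex of Hox genes. They sat in a stretch of 360 kb between thresholded summits at 6456387 and 6816457, which ranked 7 by length among 7019 such gaps and holds 36 protein-coding genes. The gap held 47 pooled candidates, but within 5 kb of the Ccp84A cluster there was none, with 0 in replicate 2 and 1 in replicate 3. Each replicate had 2 of its highest candidates within those bounds. Lcp1 to Lcp4 sat in a gap of 269 kb (rank 24) and the Cpr65E cluster in one of 117 kb (rank 186). Within the Cpr65E gap lay 3 of the highest candidates of replicate 2 and 2 of replicate 3, and within the Lcp gap 0 of replicate 2 and 1 of replicate 3, so that the single replicates split some of these gaps.

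The gap between thresholded summits that held a gene's start had a median of 57.2 kb for the cuticle protein genes (quartiles 35.3 and 80.8), against 29.1 kb for all protein-coding genes (9.44 and 87.6). That median is the length of 1 gap, the one that holds the 18 genes of the 65A cluster. In replicates 2 and 3 the medians were 57.1 and 57.0 kb, against 29.9 and 29.7 kb. The upper quartile was lower for the cuticle protein genes, so the difference lay in the shorter gaps. For clustered genes the median was the same gap, and for isolated genes it was 36.0 kb.

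Other genes inside the clusters had no thresholded summit either. Of 11 other protein-coding genes whose whole span lay in a cluster, 2 were cuticle genes of the same protein family, Acp65Aa and Edg78E, and both had a pooled candidate but no thresholded summit. None of the other 9, among them TpnC47D, a troponin C gene, had a thresholded promoter summit, which allows a share of up to 29.9%, and 2 had a pooled candidate, CG8501 and CG43702. Of the 26 protein-coding genes that flank the clusters, 6 had a thresholded summit, or 23.1% (11.0 to 42.1), and 15 a pooled candidate, or 57.7%. These 26 include Edg84A, also of the same protein family, which had neither. Both intervals of the flanking genes, 11.0 to 42.1 and 38.9 to 74.5, include the shares of all protein-coding genes. With 9 such genes inside, the intervals of the inner and the flanking genes overlap.

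Repeated sequence limits where short reads can be placed, and several clusters hold near-identical copies. Within 500 bp of starts, the share of 32-base words found once in the genome averaged 93.6% ± 18.5 over the cuticle protein genes (SD over 94 genes), against 97.3% over all protein-coding genes. It was 91.2% for clustered and 99.96% for isolated genes. Below 90% were 12 cuticle protein genes, all clustered. Lcp65Ag2, whose promoter and summit windows are printed above, was among them at 61.6%. The lowest were Lcp65Ab1 and Lcp65Ab2 at 9.90%, Cpr65Ax1 at 23.8% and Cpr65Ax2 at 27.9%. These lie in the longest candidate-free stretch of the 65A cluster, 12.5 kb with the starts of 9 genes, of which 6 were below 90%. How reads from such copies were placed is not stated in the labels or lists, and its part in the missing summits was not tested.

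Most of the genes had unique sequence, and their share was low as well. Of the 77 cuticle protein genes with at least 99% of such words, 2 had a thresholded summit and 13 a pooled candidate, or 16.9% (10.1 to 26.8), against the 60.4% of all protein-coding genes. The latter were not limited by unique words or by number of starts, and 92.7% of them had at least 99% of such words. Of the 80 genes without a pooled candidate, 64 were in that unique class.

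Many cuticle protein genes have a TATA box, a core promoter element that positions transcription initiation. TATAAA lay within the bases 40 to 16 before the start, on the strand of the gene, in 50 of 94 genes, or 53.2% (43.2 to 63.0), against 7.73% of all protein-coding genes. By arrangement the counts were 39 of 68 clustered genes, or 57.4%, and 9 of 22 isolated genes, or 40.9%. Every cluster had at least 1 such gene, from 1 of 4 in the Cpr76B cluster to 3 of 3 in the Cpr65E cluster, with 12 of 18 in the 65A cluster. These shares describe the genome and not the binding data.

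The windows of 60 bases around the start are shown for 9 clusters, with TATAAA in capitals, so that the spacing of the box from the start can be compared between clusters. They were chosen after the match was seen, as 1 gene with the box from each cluster on 3L and 3R, and they are read from the same Release 6 sequence in the direction of transcription.
Cpr62Bc, chr3L:1842070-1842129, minus strand: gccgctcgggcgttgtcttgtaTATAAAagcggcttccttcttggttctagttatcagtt
Cpr64Aa, chr3L:4209164-4209223, minus strand: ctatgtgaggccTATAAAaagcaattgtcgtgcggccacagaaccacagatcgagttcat
Lcp65Ag3, chr3L:6130975-6131034, minus strand: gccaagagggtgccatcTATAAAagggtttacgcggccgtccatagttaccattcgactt
Cpr65Ea, chr3L:7086594-7086653, minus strand: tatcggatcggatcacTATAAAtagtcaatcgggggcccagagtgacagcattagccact
Cpr67Fa1, chr3L:10889945-10890004, plus strand: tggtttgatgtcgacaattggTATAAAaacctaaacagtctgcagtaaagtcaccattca
Cpr72Eb, chr3L:16364854-16364913, plus strand: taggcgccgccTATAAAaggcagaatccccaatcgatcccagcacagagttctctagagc
Cpr76Ba, chr3L:19518318-19518377, minus strand: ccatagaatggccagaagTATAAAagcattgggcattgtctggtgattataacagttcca
Cpr78Cc, chr3L:21300535-21300594, plus strand: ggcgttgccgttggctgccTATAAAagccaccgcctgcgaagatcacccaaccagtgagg
Ccp84Ag, chr3R:6686683-6686742, plus strand: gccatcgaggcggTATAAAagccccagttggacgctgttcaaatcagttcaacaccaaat
The first T of the box lies between -34 in Cpr72Eb and -23 in Cpr62Bc, with Lcp65Ag3 at -28 and Ccp84Ag at -32.

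Summits were less frequent at promoters with a TATA box outside the cuticle protein genes too. Among protein-coding genes other than the cuticle protein genes, 137 of 1028 with the box had a thresholded summit, or 13.3% (11.4 to 15.5), against 31.6% (30.8 to 32.4) without it. With 1 start the shares were 9.88% with the box and 24.5% without it. Among the cuticle protein genes 0 of 50 with the box had a thresholded summit, which allows up to 7.13%, and 2 of 44 without it, or 4.55% (1.26 to 15.1). For pooled candidates the counts were 6 of 50 with the box, or 12.0%, against 35.2% of other genes with the box, and 8 of 44 without it, or 18.2%, against 62.8%. Among other genes with 1 start the pooled shares were 30.0% with the box and 55.2% without it. In both classes of promoter the cuticle protein genes thus had fewer candidates than other genes of that class. The part of the core promoter in the low share was not tested.

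In the 300 bases from 250 before the start to 50 after it, counted on both strands, the DRE core and GATA words were less frequent and TATAAA more frequent than over all protein-coding genes. A GATA word was in 28 of 94 promoters, or 29.8%, against 46.7% of all protein-coding genes, and the DRE core in 6.38% against 23.3%. A GAGA word was in 30.9% against 29.7%, a Grainyhead word in 36.2% against 29.2% and CAAGGTC in 1.06% against 1.39%. TATAAA at any position was in 72.3% against 45.8%. The GC content was 44.2% ± 6.13 (SD over genes) against 39.1% ± 7.74. A match is a description of letters and not a binding site.

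Other genes of cuticle formation were counted by role. Other structural genes had no thresholded promoter summit. Of 6 further genes of the same protein family, none had a thresholded summit and 3 had a pooled candidate: Crys, Acp65Aa and Edg78E had one, and Pcp, resilin and Edg84A did not. Their intervals, 0 to 39.0% thresholded and 18.8 to 81.2% pooled, include the shares over all protein-coding genes. Of 26 Tweedle genes, another family of cuticle proteins that shape the body, none had a thresholded summit, which allows up to 12.9%, and TwdlP and TwdlN alone had a pooled candidate. Of 9 genes of chitin-binding peritrophin-like proteins, none had a thresholded summit, which allows up to 29.9%, and Gasp and obst-A had a pooled candidate. Over all protein-coding genes the shares were 30.1% thresholded and 60.4% pooled.

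The enzyme and regulator lists, like the 6 further genes of the protein family, had intervals that include the shares over all protein-coding genes. Those shares were 30.1% thresholded and 60.4% pooled. Of 16 genes of chitin synthesis and modification, 3 had a thresholded summit, or 18.8% (6.59 to 43.0), and 12 a pooled candidate, or 75.0% (50.5 to 89.8). The strongest was mmy, which makes the sugar nucleotide for chitin, with a signal of 910 (rank 170), 496 in replicate 2 and 403 in replicate 3. Cht7, a chitinase gene, had 281, and Idgf6, a chitinase-like gene, had 217 with no matching candidate in replicate 3. The chitin synthase gene kkv had a pooled candidate. Of 9 tanning genes, which make the compounds that harden and colour cuticle, Pu alone had a thresholded summit, or 11.1% (1.99 to 43.5), with a signal of 341, and 7 had a pooled candidate, or 77.8% (45.3 to 93.7), among them ple and Ddc. Of 16 regulators, 6 had a thresholded summit, or 37.5% (18.5 to 61.4), and 10 a pooled candidate, or 62.5% (38.6 to 81.5). Eip75B, an ecdysone-induced nuclear receptor gene, had 789 (rank 239), ftz-f1 516, rib 373 and usp, which encodes the partner of the ecdysone receptor, 315. At ftz-f1 the summit was nearer to the start of a noncoding RNA gene. These lists are short, their intervals are wide and they were not matched for starts per gene, so their order is a description.

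**Figure D5:**
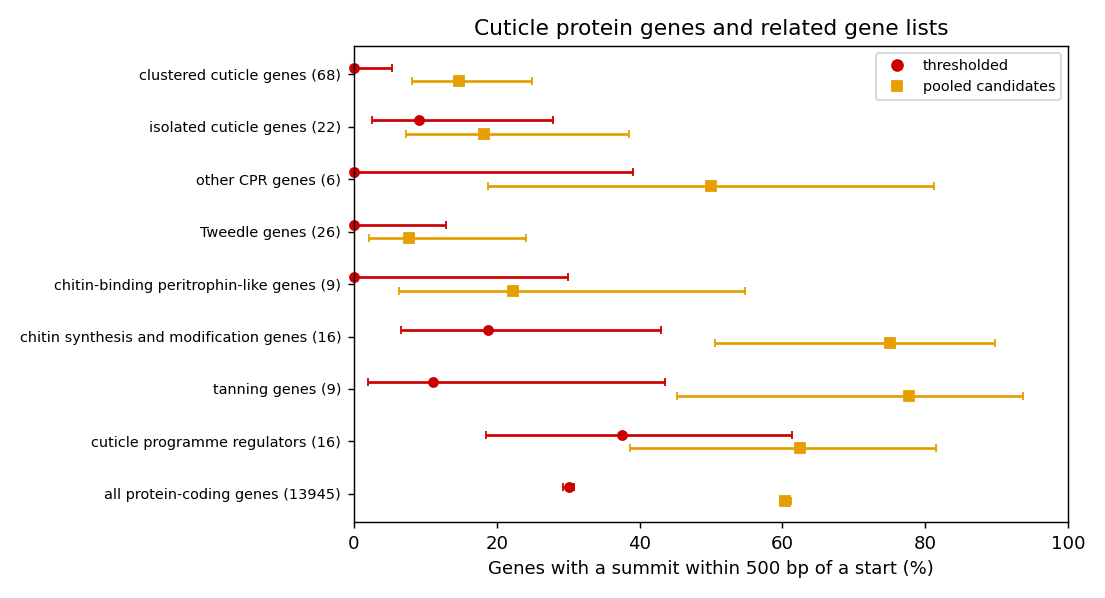
Share of genes (%) with a thresholded summit (red circles) and with a pooled candidate (orange squares) within 500 bp of a start, with 95% Wilson intervals, for clustered and isolated cuticle genes, 6 related lists and all protein-coding genes, with the number of genes in brackets. The thresholded share is 0 in the 26 Tweedle genes and 37.5% in the 16 regulators, against 30.1% of all protein-coding genes.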

How the data were processed

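Per the file headers and the labels, the authors deposited 4 narrowPeak lists on build dm6: candidates of replicate 2, of replicate 3 and of their pool, and a thresholded list chosen by the irreproducible discovery rate. Each deposited line gives a signal value in the authors' units and a −log10 q value; their scale, the aligner and the peak caller are not given in the sources used. Both replicates were set against 1 control. The candidate lists hold 30000 lines each by construction, and the 7025 thresholded lines are the 7025 of highest signal in the pool. For each replicate its 7025 highest candidates were used likewise. Depth is unknown, and intervals cover counting error only.

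Genes came from Ensembl release 115 (BDGP6.54), without 5809 transposable element records, and sequence from RefSeq, Release 6, which is the same build. Every start of a gene was searched, with a window of 500 bp on each side, and 1 summit could count for several genes. Replicate summits were matched within 250 bp. Shares carry 95% Wilson intervals and densities exact Poisson intervals; no test was run, since there is 1 group and genes of a cluster share peaks. The scripts were tested on simulated data (Python 3.11.15, numpy 2.4.6, pandas 2.3.3, scipy 1.17.1). The genes, lists and motifs were chosen with earlier results of these data known. Genes named are those with a thresholded promoter summit, the 10 of highest pooled promoter signal, those nearest to and farthest from thresholded summits, the genes nearest to summits beside each cluster and bound members of the related lists; Cpr12A, TpnC47D, kkv, ple, Ddc and the genes with a pooled candidate alone or none were named after their values were seen. Of the tanning genes listed, Dat and AANAT1 had no match and are not analysed here. Alternatives changed the window, the assignment of summits, the peak set, the cluster rule, the flank and the word length.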

Additional observations from a re-analysis of the deposited data

How the results depend on the processing

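Of 2 cuticle protein genes with a thresholded promoter summit, 1 was left with the 3512 peaks of higher signal (fewer peaks), 0 within 200 bp and 0 when a summit counted for its nearest start only, and the count was 2 with either replicate alone and in the other settings. The 14 genes with a pooled candidate became 8 within 200 bp, 12 to 17 with single replicates and 12 to 21 in the other settings. The difference between clustered and isolated genes, -3.48 points, was -11.1 to -0.40 with single replicates and reversed to 5.61 with nearest starts only, which left 2 of the 4 isolated genes. The 25.3 summits per Mb within 5 kb of the clusters were 25.3 to 28.4 with single replicates, 15.8 with the stronger peaks, 21.1 with runs of 2 genes as clusters, and 5.37, 12.6 and 43.5 with flanks of 0, 2 and 10 kb. The median distance of 13495.5 bp was 13493.5 to 15306.5 bp with single replicates and 19058.5 bp with the stronger peaks. Words of 24 bases gave 92.8% in place of 93.6%. Where no construction is named, the cause was not tested. No paired analysis was possible because there is 1 group. Unknown depth, 1 shared control, 2 libraries and the preset list length limit what an absent summit can show, and so do near-identical copies in the 65A cluster.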
